A study of Triticum aestivum with 78 samples.

Results

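Lines of a hexaploid wheat mapping population were compared according to the level of 1 transcript in developing seed, that of UniGene cluster Ta.6215's only probe set, called the marker here. The lines were chosen by their own measured values at the marker and then compared over the remaining probe sets. A line counted as low where both of its arrays lay below 7.6 log2 units at the marker and as high where both lay above. The low class held 15 lines on 30 arrays and the high class 18 lines on 36 arrays, from 39 lines on 78 arrays in all. The other 6 lines were not compared: H9, G30, G13 and B33, left out by the rule, and F38a and H5, whose arrays lay on both sides of 7.6.

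All lines came from the cross RL4452 x AC Domain, grew in the field in a lattice, and gave seed collected 5 days after anthesis in 2 biological replicates. No treatment or genotype label other than the line name separates the classes, and no array of either parent was analysed here. Polyadenylated RNA was measured on Affymetrix wheat arrays, and the deposited intensities, made by RMA, ran from 5.04 to 27696 and were taken to log2 units. The labels do not say that the replicates of a line came from separate plots. The arrays of a line were averaged before the tests, so p-values measure the spread between line means. That spread also holds differences between the replicates of a line.

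In a population of inbred lines, a difference between the parents near a gene, or in a regulator of it, can leave some lines low and others high for that transcript. Transcripts whose causal differences lie nearby on the same chromosome, or that answer to the same regulator, then differ between the same classes. Bread wheat carries near-identical copies of most genes on its A, B and D genomes. A probe set can therefore take signal from several copies, and a base difference under its probes can look like a difference in level.

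The annotation used here gives the marker no gene. Because its values chose the lines, they are given as a description. Line means of the low class had a lowest value of 4.36, a median of 5.10 and a highest value of 6.65 log2 units, and those of the high class 8.54, 9.09 and 9.32. The class means were 5.16 ± 0.60 (SD, n = 15 lines) and 9.07 ± 0.19 (SD, n = 18 lines), a 15-fold difference in intensity. The high lines were tightly grouped and the low lines were spread, and the median level of all probe sets on the array, 5.07 log2 units, lay close to the median of the low class.

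**Figure D1:**
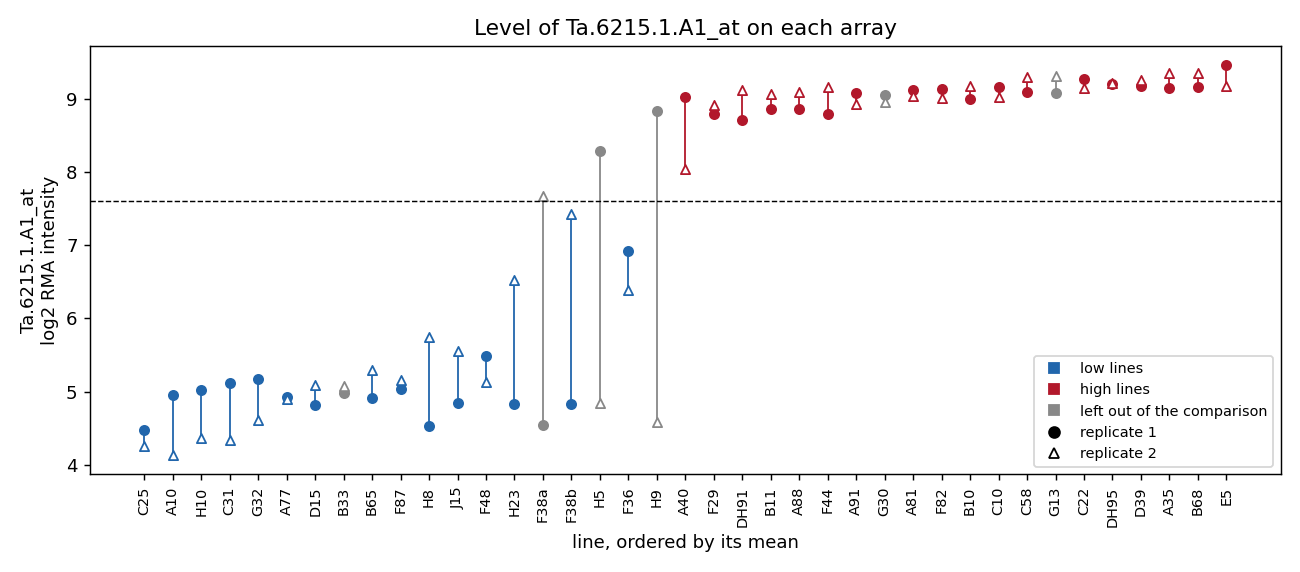
Log2 RMA intensity of the marker on both arrays of each of the 39 lines, ordered by line mean (circles, replicate 1; triangles, replicate 2; dashed line, 7.6). Both arrays of every high line lie at 8.04 or above, whereas F36, F38b, H23 and H8 hold the low arrays nearest to the dashed line.

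The low class was not uniform. F38b replicate 2, at 7.43, was the low array nearest to the threshold, and its replicate 1 had 4.83. F36 had 6.92 and 6.39, so that both of its arrays lay between the main clusters. H23 had 4.83 and 6.52, and H8 had 4.53 and 5.75. Just outside the classes, F38a had 4.54 and 7.67, H5 had 8.29 and 4.84, and H9 had 8.83 and 4.59. On the high side the nearest array was A40 replicate 2, at 8.04, against 9.03 in its replicate 1. In all, 30 of the 78 arrays lay at 5.55 or below, 40 lay at 8.72 or above, and 8 lay between, from 5.75 to 8.29.

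The comparison of low with high lines asked which other transcripts differed with the marker. In limma's test on line means with Benjamini-Hochberg adjustment, 943 of 61114 probe sets (1.54%) passed an adjusted p of 0.05. Of these, 310 (0.507% of those tested) were higher in the low lines and 633 (1.04%) were lower. Most differences were small: 757 of the 943 were below 0.5 log2 units, and the median size was 0.31. At least a 2-fold difference was found for 29 probe sets, 8 higher and 21 lower in the low lines, and at least a 4-fold difference for 4. No probe set separated the classes without overlap of line means (0 of 61114, 0% as background), so each difference described here has at least 1 line on the other class's side. Without an adjustment, 10546 probe sets (17.3%) had a p below 0.05.

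**Figure D2:**
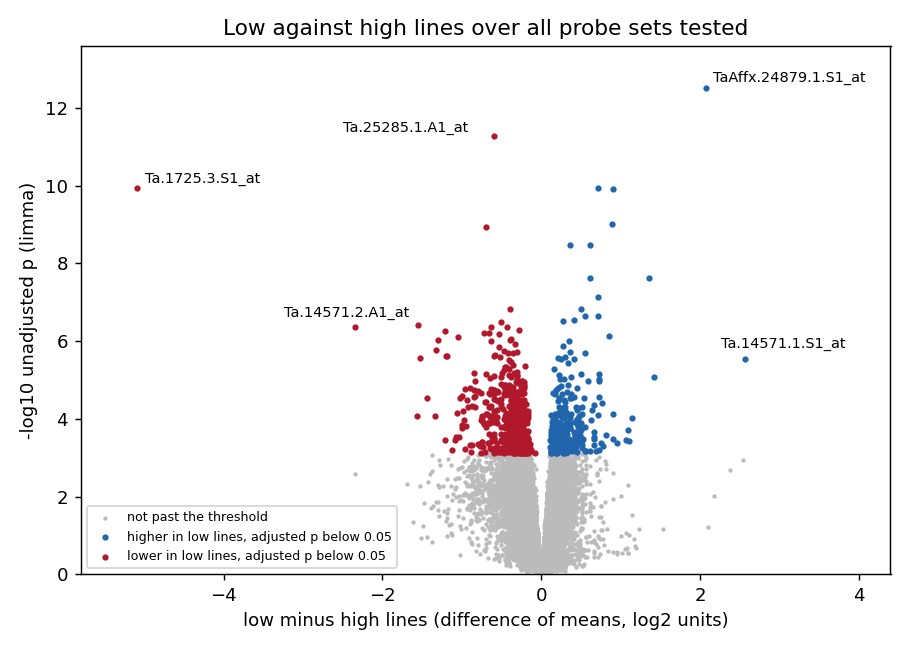
Difference of class means, low minus high lines, in log2 units (x axis) against the −log10 of limma's unadjusted p (y axis) for 61114 probe sets, with the 943 past the threshold in colour. Ta.1725.3.S1_at stands alone at −5.09, and the probe sets TaAffx.24879.1.S1_at and Ta.14571.1.S1_at have the largest differences among the coloured points above 0.

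The counts moved with single lines. Line H8, whose replicate 2 array had the highest median intensity of the arrays compared (36.4 intensity units, against 32.1 to 34.2 on the others), lies in the low class. Without H8 the total was 849, with 419 higher and 430 lower in the low lines, so that 49.4% were higher there, against 32.9% of the 943. Without H10, a low line described below, 2447 passed, and without A40, a high line, 2170 passed. Each of these 2 counts included all 943. Leaving out 1 of A10, A81, B65, B68, C58, D39, DH91, E5, F36, F87 or H23 gave 493 (D39) to 615 (H23). Of single arrays left out, A77 replicate 1 gave 471, H8 replicate 1 gave 527, B11 replicate 2 gave 564, G32 replicate 1 gave 565, F48 replicate 1 gave 590, C22 replicate 1 gave 618 and D15 replicate 2 gave 624. The highest count with 1 array left out was 1404, without G32 replicate 2.

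The largest difference was at Ta.1725.3.S1_at, which has no annotated gene. Its low line means had a lowest value of 4.43, a median of 5.00 and a highest value of 11.76 log2 units, and its high line means 7.80, 11.84 and 12.25. The difference, low minus high, was −5.09 ± 0.56 (SE, n = 15 and 18 lines) log2 units, which is 34.1-fold in intensity (limma, adjusted p = 1.51e-06). Most low lines therefore lay near the median level of the array and most high lines far above it. The highest low line was H10 and the lowest high line was F44. A second probe set of the same cluster, Ta.1725.2.S1_at, was lower in the low lines, with a difference of −0.70 (adjusted p = 0.0251), and the other, Ta.1725.1.S1_at, differed by −0.14 and did not pass (0.683).

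The smallest p belonged to TaAffx.24879.1.S1_at, likewise without an annotated gene. Its low line means had a lowest value of 6.21, a median of 7.55 and a highest value of 8.36, and its high line means 4.67, 5.43 and 6.35. It was higher in the low class by 2.07 ± 0.18 (SE) log2 units, 4.20-fold in intensity (adjusted p = 1.86e-08). The classes overlapped between 6.21 and 6.35, from F36, the lowest low line, to A40, the highest high line.

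Cluster Ta.14571 held probe sets that differed in opposite directions. Ta.14571.2.A1_at had a lowest low line mean of 4.05, a median of 4.43 and a highest of 8.06, against 4.94, 7.78 and 8.05 in the high lines. Ta.14571.1.S1_at had 4.73, 8.44 and 9.37 in the low lines and 4.37, 4.85 and 8.53 in the high lines. The first was lower in the low class, by a difference of −2.34 ± 0.37 (SE) log2 units (adjusted p = 0.00117, but 0.0669 in replicate 2 arrays alone). The second was higher by 2.57 ± 0.46 (adjusted p = 0.00321). The remaining probe set of the cluster, Ta.14571.3.S1_x_at, had class means of 9.72 and 9.53 and did not pass (adjusted p = 0.055).

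Cluster Ta.6665 showed the same kind of opposition at higher levels. Ta.6665.1.S1_at and Ta.6665.1.S1_x_at were higher in the low lines by 0.35 and 0.34 log2 units (adjusted p = 0.0017 and 0.00376), with class means between 11.99 and 12.70. Ta.6665.3.S1_at and Ta.6665.3.S1_x_at were lower, with differences of −0.66 and −0.63 (adjusted p = 0.00141 and 0.0017), with class means between 9.95 and 11.46. Of 837 clusters with a probe set past the threshold, 87 had at least 2. In 84 of these 87 every probe set that passed had the same direction, and in 3 they went both ways. Some partners carry the same member number, such as Ta.5690.1.S1_at and Ta.5690.1.S1_x_at, so they are not independent. The share with 1 direction over all clusters tested is not given here. Cluster Ta.359 had all 4 of its probe sets higher in the low lines, by 0.22 to 0.29 log2 units.

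The probe sets with at least a 4-fold difference were then followed on single arrays, because the replicates of several lines disagreed at the marker. For each, an array was placed on the low or the high side of the midpoint between the 2 class medians. At Ta.1725.3.S1_at, 67 of 78 arrays lay on the side that their own marker value gave, and at TaAffx.24879.1.S1_at 70 of 78 did. The counts were 65 for Ta.14571.2.A1_at and 63 for Ta.14571.1.S1_at. These counts include the arrays that set the midpoints, so they describe the data and are no test.

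**Figure D3:**
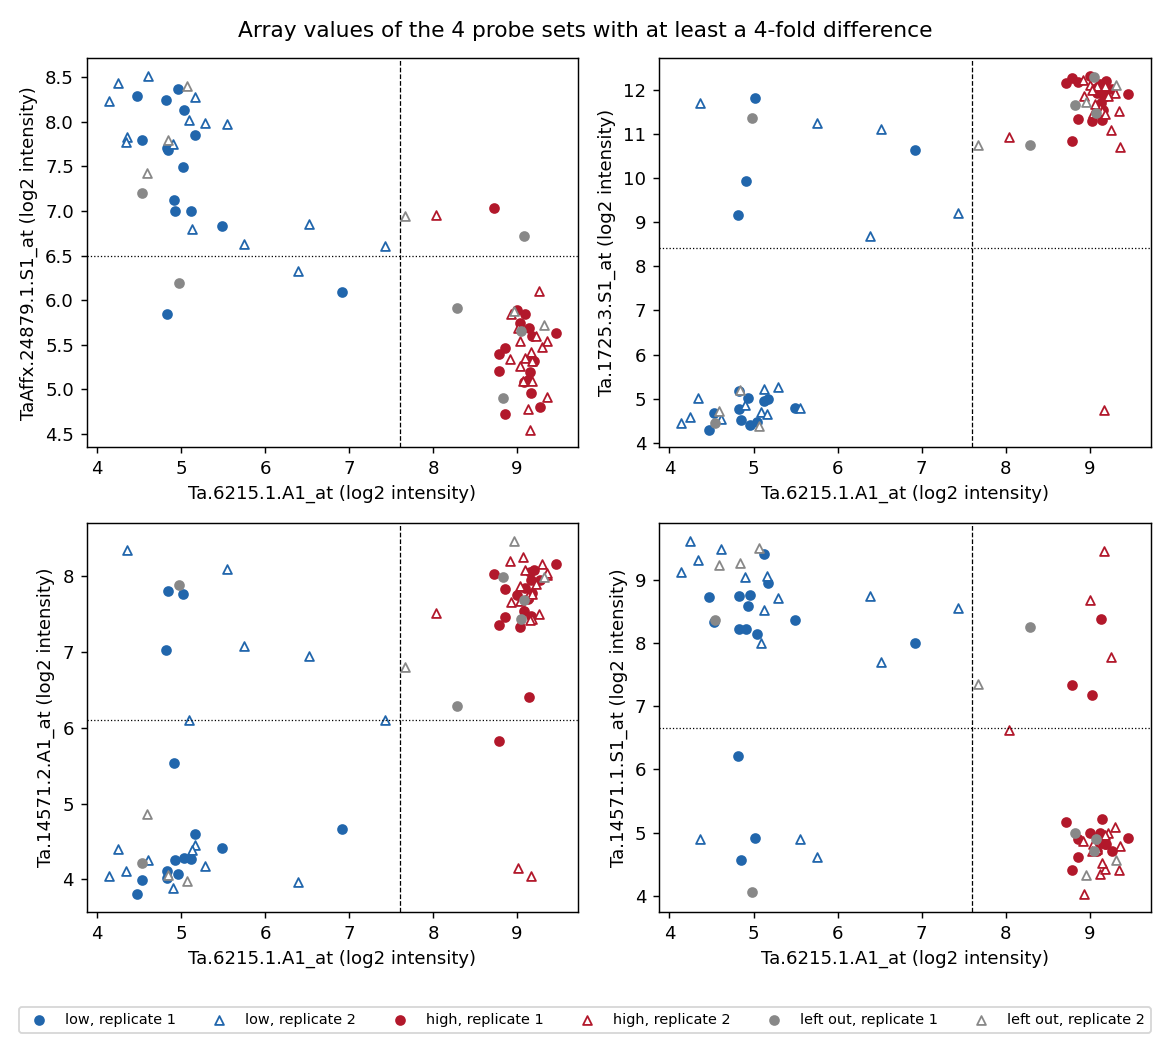
Log2 intensity of the 4 probe sets with at least a 4-fold class difference (y axes) against that of the marker (x axes) on all 78 arrays (blue, low lines; red, high lines; grey, lines left out; circles, replicate 1; triangles, replicate 2; dashed lines, 7.6; dotted lines, midpoints of class medians). At TaAffx.24879.1.S1_at the arrays between the 2 clusters of marker values run from 5.91 to 6.95. That range lies within those of the arrays low (5.85 to 8.51) and high (4.55 to 7.03) at the marker.

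The 12 arrays of the 6 lines left out took no part in choosing or fitting the probe sets. Of these, 11 lay on the side of their own marker value at Ta.1725.3.S1_at, 11 at Ta.14571.2.A1_at, 9 at Ta.14571.1.S1_at and 9 at TaAffx.24879.1.S1_at. In H9, replicate 1 was high at the marker (8.83) and had 11.66 at Ta.1725.3.S1_at, whereas replicate 2 was low (4.59) and had 4.73. H5 had 10.76 and 5.19 at Ta.1725.3.S1_at with 8.29 and 4.84 at the marker, and F38a had 4.46 and 10.74 with 4.54 and 7.67. In these 3 lines the array that was high at the marker was thus the one that was high at Ta.1725.3.S1_at. Among the lines left out, B33 was the exception, with 4.98 and 5.07 at the marker but 11.36 and 4.39 at Ta.1725.3.S1_at.

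Replicates also parted at Ta.1725.3.S1_at within the classes. Of the 15 low lines, 8 had both arrays on the low side, 5 had 1 array on each side, namely B65, D15, F38b, H23 and H8, and F36 and H10 had both on the high side. Of the 18 high lines, 17 had both arrays on the high side and F44 had 1 on each side. In B65, replicates 1 and 2 had 9.94 and 5.27 there, against 4.91 and 5.29 at the marker. D15 had 9.17 and 4.70 against 4.82 and 5.09, and F44 had 10.85 and 4.75 against 8.79 and 9.17. These 3 splits did not follow the marker. In F38b, H23 and H8 the array higher at the marker was also the higher one at Ta.1725.3.S1_at. The 8 arrays with intermediate values at the marker, chosen after their values were seen, ran from 8.68 to 11.25 at Ta.1725.3.S1_at with a median of 10.75. The 30 arrays low at the marker had a median of 4.79 there and the 40 high arrays 11.86. At TaAffx.24879.1.S1_at the 8 intermediate arrays ran from 5.91 to 6.95 with a median of 6.62, between medians of 7.80 and 5.41 for the low and the high arrays.

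A few lines kept to different sides at different probe sets on both arrays. H10 was low at the marker (5.02 and 4.36) and on the low side at TaAffx.24879.1.S1_at, but on the high side at Ta.1725.3.S1_at (11.81 and 11.70) and at both Ta.14571 probe sets. J15 was low at the marker and Ta.1725.3.S1_at but on the high side at both Ta.14571 probe sets. F82 was high at the marker and Ta.1725.3.S1_at, and on the low side at Ta.14571.1.S1_at, with 8.38 and 8.68. F44 was high at the marker and on the low side of both Ta.14571 probe sets on both arrays.

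The 15 probe sets with the smallest p in each direction give the same picture over more transcripts. None of the 30 has an annotated gene, and 24 reached the median level of the array in at least 1 class. Those higher in the low class had differences of 0.28 to 2.07 log2 units, and those lower −5.09 to −0.28. Placed at the midpoints of class medians, low lines lay on the low side at a median of 28 of the 30 (range 6 to 30) and high lines at a median of 1 (range 0 to 16). This separation follows from choosing the 30 on these lines. The exceptions among the lines compared were H10, on the low side at 6 of 30, and A40, a high line on the low side at 16 of 30.

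The 6 lines left out show the same probe sets in lines that did not choose them. B33, low at the marker on both arrays, was on the low side at 28 of 30. F38a, with 1 array on each side at the marker, was on the low side at 29. G30 and G13, high at the marker, were on the low side at 1 and 3. H5 and H9, whose arrays lay on both sides at the marker, fell between, with 18 and 12 of 30.

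**Figure D4:**
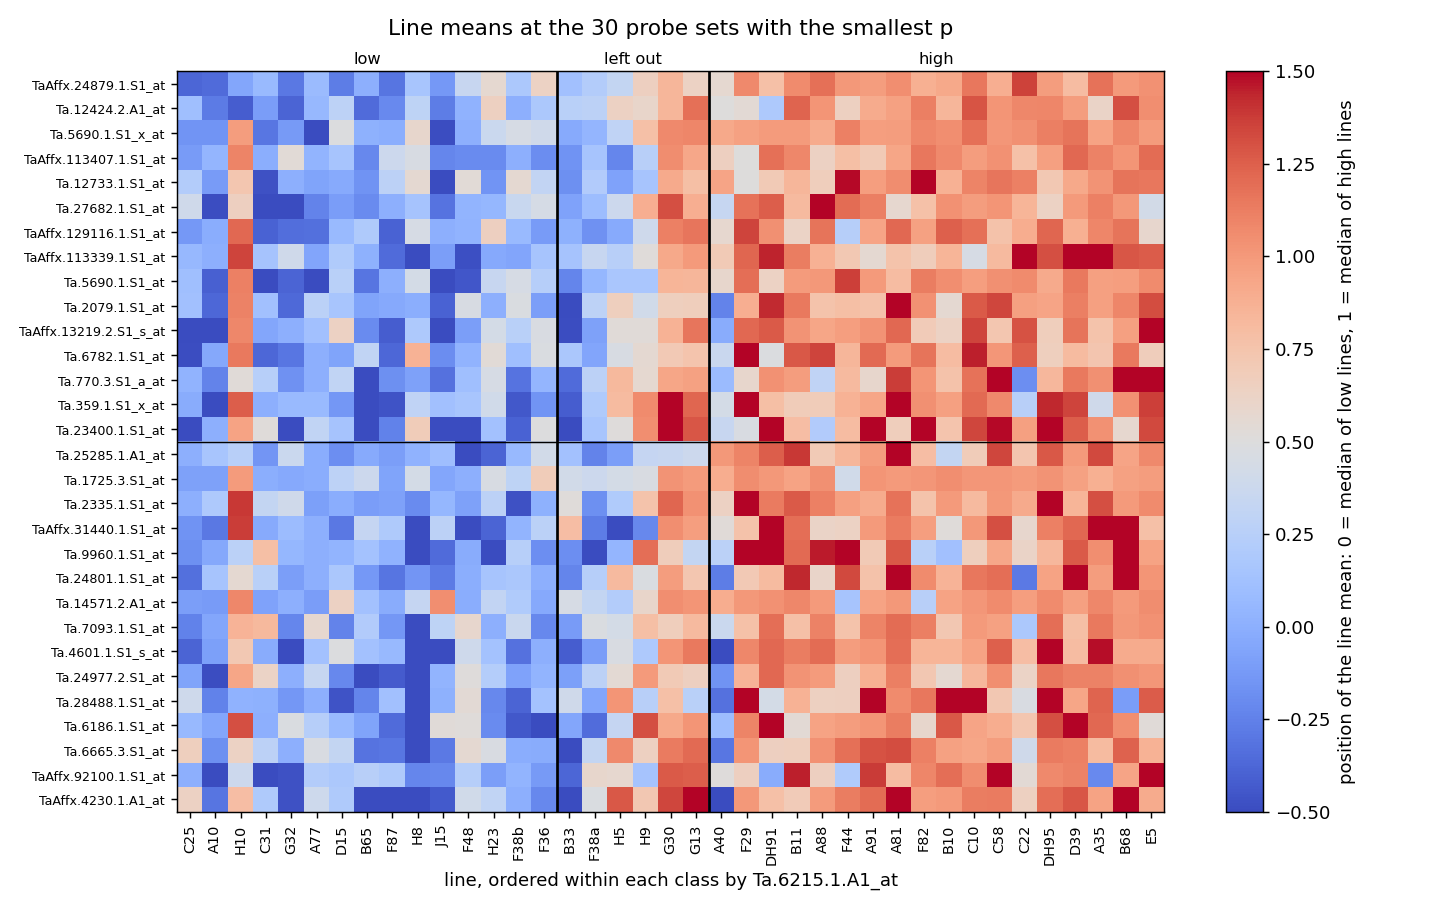
Line means of the 30 probe sets with the smallest p, 15 higher (above the horizontal line) and 15 lower in the low class, each scaled so that 0 is the median of the low lines and 1 the median of the high lines. H10 carries high-class values at most of the 30, A40 low-class values at about as many as not, and the left-out lines B33 and F38a look low and G30 and G13 look high.

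H10 was the low line nearest to the high class at 13 of the 15 probe sets higher in the low lines and at 11 of the 15 lower ones. Several of the 30 differed at levels well above the median. Ta.2335.1.S1_at had 8.98, 9.32 and 10.33 as lowest, median and highest line mean in the low class and 9.79, 10.05 and 10.54 in the high class. It was lower in the low lines, with a difference of −0.69 ± 0.08 (SE, adjusted p = 1.01e-05), and its highest low line was H10. Ta.12733.1.S1_at, with 7.49, 8.00 and 8.38 in the low class and 6.90, 7.31 and 7.65 in the high class, was higher by 0.61 ± 0.08 (adjusted p = 2.3e-05). At TaAffx.129116.1.S1_at the median of the high class lay just below the median level of the array. It was higher in the low lines by 1.36 ± 0.19 (adjusted p = 0.000134), with 4.68, 6.55 and 7.15 against 4.49, 5.02 and 6.18, and H10 was the lowest of the low lines.

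Other members of the 30 lay near or below the median level, so their folds hold for intensities only. Ta.25285.1.A1_at had the second smallest p, with 3.93, 4.23 and 4.48 in the low class and 4.42, 4.82 and 5.15 in the high class (−0.60 ± 0.06 SE, adjusted p = 1.6e-07). The 2 probe sets of cluster Ta.5690 were higher in the low lines by 0.91 and 0.72 log2 units (adjusted p = 1.51e-06 and 0.000367), and Ta.12424.2.A1_at by 0.72 (1.51e-06). At Ta.5690.1.S1_x_at the high lines were confined to 3.27 to 3.54, while the low lines ran from 3.46 in H10 to 5.06 in A77.

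By Pearson correlation of line means over all 39 lines, the probe sets most like the marker were TaAffx.24879.1.S1_at (−0.93), Ta.1725.3.S1_at (0.87), Ta.5690.1.S1_x_at (−0.87), Ta.12424.2.A1_at (−0.86) and Ta.27682.1.S1_at (−0.83). The lines fall into separate clusters at the marker, and the values share arrays with the rule, so these are a description with no test.

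Among the 21 probe sets lower in the low lines by at least 2-fold, the same lines recurred at the ends of the classes. H8 was the lowest low line at 14 and H10 the highest low line at 16. A40 was the lowest high line at 17 and B68 the highest high line at 14. Their values reached from 3.52 in the low lines to 12.25 in the high lines, at Ta.9220.1.S1_a_at and Ta.1725.3.S1_at.

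Only a small part of the probe sets tested has an annotated gene, so few of those that differed could be named. Of 1273 probe sets with an annotated gene, 40 (3.14%) passed, 22 higher and 18 lower in the low lines, against 1.54% of all probe sets. The share was 2.68% among all probe sets with a mean above the median level. Of the 200 probe sets whose gene has a name other than a locus number, 6 passed. These were of the fructan exohydrolase gene 6-FEH, the deoxymugineic acid synthase gene DMAS1, the alpha-tubulin gene TUBA and hsp16.9A, which encodes a small heat shock protein.

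6-FEH encodes an enzyme that removes fructose from the branched or levan-type fructans that wheat stores as soluble carbohydrate. Ta.30950.1.A1_x_at had a lowest line mean of 7.38, a median of 9.75 and a highest of 10.42 in the low lines, and 7.00, 8.39 and 10.18 in the high lines. It was higher in the low class by 1.14 ± 0.26 (SE) log2 units, 2.20-fold (adjusted p = 0.0198; 0.178 in replicate 2 arrays alone). Ta.9641.1.A1_a_at was higher by 0.63 ± 0.14 (adjusted p = 0.0199). That call was lost without F36 replicate 2 (0.0652) and in the arrays of replicate 1 (0.112) or replicate 2 (0.056) alone, all as adjusted p. The other probe set of the gene, TaAffx.93410.1.S1_at, had class means of 6.96 and 6.60 and did not pass (0.0622). The classes overlapped widely at both probe sets that passed.

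DMAS1 acts in the synthesis of mugineic acid phytosiderophores, with which grasses take up iron. Ta.5335.3.S1_a_at had 9.10, 9.31 and 9.65 in the low lines and 9.27, 9.59 and 9.91 in the high lines, a difference of −0.27 ± 0.06 (SE, adjusted p = 0.0143; 0.515 in replicate 2 arrays alone). Ta.5335.1.A1_x_at differed by −0.24 (adjusted p = 0.0387), and leaving out 1 array ended this call for 9 of 66 arrays (up to 0.0833) and 1 line for 13 of 33 lines (up to 0.0686). TUBA, a subunit of microtubules, had 7.30, 8.38 and 9.24 in the low lines and 8.05, 9.05 and 9.59 in the high lines at Ta.723.1.S1_at (−0.65 ± 0.15 SE, adjusted p = 0.0195; 0.0598 without A40 replicate 2 and 0.146 in replicate 2 arrays alone). A second TUBA probe set, Ta.812.1.S1_x_at, had 13.63 and 13.56 as class means and did not pass (0.269).

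The transcript of hsp16.9A, a chaperone induced by heat, was close to background in the low lines. At Ta.24332.1.S1_at the low line means had a lowest value of 3.47, a median of 3.74 and a highest value of 4.10, and the high lines 3.57, 4.87 and 6.85. The difference was −0.94 ± 0.20 (SE, adjusted p = 0.0113). All low lines and the median high line lay below the median level of the array, so the difference holds for intensities only.

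Among annotated genes known only by a locus number, 34 probe sets of 29 genes passed. Ta.261.1.S1_at was lower in the low lines, with a difference of −1.44 ± 0.30 (SE) log2 units, 2.71-fold (adjusted p = 0.0108), with medians of 7.23 and 8.81. Ta.28758.1.S1_at, annotated to the same gene as Ta.261.1.S1_at, was lower, with a difference of −0.997 log2 units (adjusted p = 0.00986). Ta.22672.1.S1_at, of another gene, was higher by 0.73 (0.00666). In replicate 2 arrays alone none of these passed (limma, adjusted p = 0.0954 for Ta.261.1.S1_at, 0.0669 for Ta.28758.1.S1_at and 0.1747 for Ta.22672.1.S1_at). Cluster Ta.1457 had 3 of its 4 probe sets lower in the low lines, with differences of −0.45 to −0.24 log2 units.

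Gene lists were described by their counts and medians, beside a median difference of 0.01 log2 units over all probe sets tested. Of all probe sets 1.54% passed, and 2.68% of those above the median level. Of the starch and sugar genes, 2 of 11 probe sets passed, both of 6-FEH, and the list's median difference was 0.04. Of 10 tubulin probe sets 1 passed, the TUBA probe set above, with a median of −0.02. Of 9 stress and defence probe sets 1 passed, that of hsp16.9A, with a median of 0.02. Of the 4 Prx1 probe sets, 3 had differences of −0.22, −0.22 and −0.16 and the other 0.16, none past the threshold.

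No probe set passed in the other 7 lists, whose sizes are counted in probe sets. These were 17 probe sets of 8 storage protein genes (median difference 0.08 log2 units), 16 of 11 inhibitor, thionin and serpin genes (0.18), 18 of 5 histone genes (0.07) and 34 of 5 photosynthesis genes (−0.01). The others were 10 of 5 dehydrin and LEA genes (−0.05), 8 of 6 translation genes (0.02) and 4 of 2 tapetum and pollen genes (0.01). Most photosynthesis probe sets are of the gene rbcl, so the median of that list says little about its other genes. Above the median level lay 4 of 17 storage protein, 10 of 34 photosynthesis, 2 of 10 dehydrin and 1 of 4 tapetum and pollen probe sets. The medians of these lists thus rest mostly on probe sets below that level. The counts were 8 of 16 for the inhibitor list, 18 of 18 for histones and 7 of 8 for translation. An unadjusted p below 0.05, found for 17.3% of all probe sets, was found for 7 of 9 stress and defence, 4 of 11 starch and sugar, 4 of 10 tubulin, 6 of 18 histone and 3 of 8 translation probe sets. The counts were 2 for the inhibitor list, 2 for photosynthesis, 1 for storage proteins and 0 for the dehydrins and for tapetum and pollen. Storage proteins and the inhibitor list mark the filling endosperm, photosynthesis genes the green pericarp, and histones dividing cells. Members of the inhibitor list above the median level had list means of −1.10 to 3.40 log2 units in low lines (median −0.64) and −1.32 to 2.15 in high lines (median −0.49), each relative to the mean over all lines. These medians lie in the opposite order to the list's median difference of 0.18, which is taken over all 16 members, 15 of them above 0. For storage proteins the ranges were −0.22 to 1.57 and −0.26 to 0.43. In bulk seed, fewer cells of a type and less RNA per cell cannot be told apart.

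Over probe sets above the median level, the main axis of variation between arrays (principal component 1, 18.7% of the variance) also differed in its class medians. In replicate 1 the low arrays had a median of 27.1 and the high arrays 3.9, and in replicate 2 the medians were 2.7 and −23.7, with wide overlap (−60.4 to 84.5 against −54.2 to 27.0 in replicate 2). Its part in the small differences was not tested. Array medians of the low and high lines overlapped, with 32.3 to 34.0 and 32.4 to 34.0 intensity units in replicate 1, and 32.3 to 36.4 and 32.1 to 34.2 in replicate 2. The wash record departed from the usual one on 3 arrays. H8 replicate 1 was washed under another protocol, D15 replicate 2 has no protocol recorded and B68 replicate 2 was marked as aborted. Without them in turn, 527, 624 and 899 probe sets passed. Of 15 scan days, 11 held arrays of both classes, with 27 of the 30 low and 33 of the 36 high arrays. The 3 low arrays outside these days were replicate 2 of H8, H10 and H23, all scanned on a day without a high array. Replicate 2 of the left-out lines B33, G13, G30, H5 and H9 was scanned on the same day. The part of that day in their values was not tested.

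The replicate numbers coincide with 2 project names in the instrument files, and the comparison was repeated within each. Replicate 1 arrays alone gave 1297 probe sets (2.12%) and replicate 2 arrays alone 70 (0.115%), of which 42 passed in both. The median spread within classes was larger in replicate 2, 0.232 against 0.189 log2 units. All 30 probe sets with the smallest p passed in replicate 1, and 21 of them in replicate 2. The 30 were chosen on line means that hold these same arrays, so this is a description and no test. Ta.1725.3.S1_at differed by −5.59 in replicate 1 and −4.60 in replicate 2, and TaAffx.24879.1.S1_at by 1.98 and 2.16. Tested directly, the class difference changed between the replicates at 0 of 61114 probe sets (0% as background, limma, smallest adjusted p = 0.774). An unadjusted p below 0.05 was found for 3342 (5.47%). With a trended, robust variance the number past the adjusted threshold was also 0. The rule kept only lines whose arrays lay on the same side at the marker. At probe sets that follow the marker this limits such a change, so the 0 does not show that the replicates agree.

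**Figure D5:**
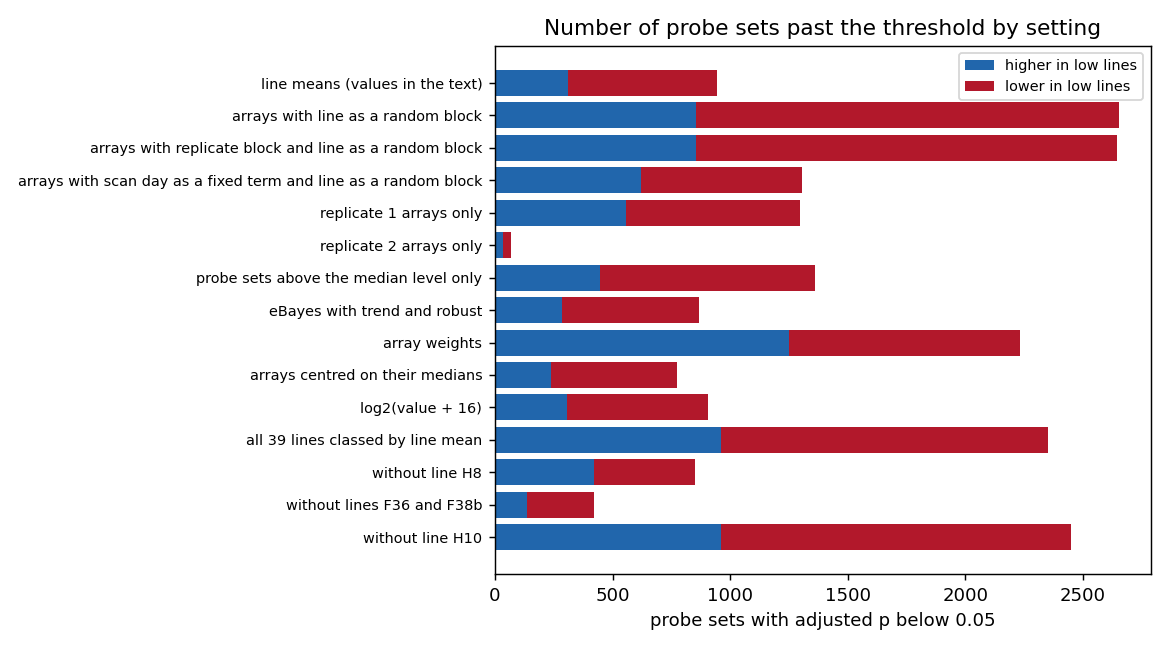
Number of probe sets past an adjusted p of 0.05, divided by direction, under each setting (bars from 0). The total runs from 70 with replicate 2 arrays only to 2654 with arrays as the unit.

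Of 7 other probe sets whose line means fall into separated groups, none passed between the low and high lines (adjusted p from 0.364 to 0.992), which does not show their levels to be alike.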

How the data were processed

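The authors deposited intensities on a linear scale, and the submitters' processing notes name RMA, with a version not given in the sources used here. That method corrects background, brings arrays to a common distribution and combines the probes of a set, so differences in total RNA cannot be seen. Log2 was taken here with nothing added. From 61290 probe sets, 111 controls, 64 reporters and the marker were left out of the tests. The 2 arrays of a line were averaged, and low and high lines compared with lmFit and eBayes of limma 3.58.1 (R 4.3.3), two-sided, with Benjamini-Hochberg adjustment over 61114 probe sets. The fit was tested on simulated data with independent noise for each probe set, so that test does not cover variation shared between probe sets. Figures used Python 3.11.15, numpy 2.4.6, pandas 2.3.3 and matplotlib 3.10.9.

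The lines, lists and tests were chosen with earlier results of these data known. Named were the 15 probe sets with the smallest p in each direction, those past the threshold with an annotated gene, the member of each list with the smallest p, the 5 most like the marker, and, after their values were seen, those with at least a 4-fold difference and cluster partners. The annotation gives 1273 probe sets 1 gene symbol and 0 several, and 1272 matched the RefSeq gene table given, used for names only. Scan day and wash record came from the instrument files deposited with each array. Replicate numbers mark project names and not pairs of lines, and replicate 2 differed from replicate 1 at 17527 probe sets, but each line mean holds 1 array of each. Precision is limited by how many lines each class holds.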

Additional observations from a re-analysis of the deposited data

How the results depend on the processing

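The 943 probe sets became 2654 with arrays as the unit and line as a random block, 2644 with the replicate number as a block added, 70 with replicate 2 arrays only, 2233 with limma's array weights (lowest for H8, 0.146), 2351 with all 39 lines classed by line mean and 423 without F36 and F38b, a choice made after the data were seen. The number stayed within 1.5 times of 943 with replicate 1 only (1297), probe sets above the median level (1361), a trended robust variance (868), centred arrays (776), an added 16 (907) and without H8 (849). The fit above the median level tested only 30556 probe sets, of which 818 were among the 943, so its share past the threshold rose. With arrays as the unit, adding scan day lowered the 2654 to 1305, with 701 of the 943 among them. The share higher in the low lines was 32.9%, but 47.4% with scan day, 42.9% and 47.1% in replicates 1 and 2, 56.0% with weights and 49.4% without H8. Leaving out 1 array gave 471 to 1404 and leaving out 1 line 493 to 2447. Of the 77 probe sets named by rule, 25 passed with replicate 2 only, and 57 to 71 and 56 to 73 passed with 1 array or 1 line left out. List members past the threshold, 4 in all, became 11 with arrays as the unit, 11 with the replicate number as a block, 9 with weights, 9 with all lines, 1 with replicate 2 only, 3 to 6 with 1 array left out and 4 to 10 with 1 line left out. The 30 probe sets with the smallest p passed with every array or line left out, and none of the 77 changed direction under any setting. These probe sets were chosen on the same arrays, so this is no independent check. The change between replicates stayed at 0 with a trended robust variance, above the median level, without H8, with all 39 lines and with each of 33 lines left out; it was not run with single arrays left out, which removes that line's difference. The background step of RMA and the probe sequences were not analysed here, so a base difference under a probe cannot be told apart from a difference in level.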
